A study of Homo sapiens with 6 samples.

Results

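The Wnt ligands, their receptors and the machinery that carries the signal to beta-catenin were examined in HCT116 cells, by their label a cell line of human colorectal carcinoma, after an antisense oligonucleotide against SNORA67. The set holds 52 genes, chosen by symbol as components of the pathway, with earlier results of these data known. The deposited table of 19655 symbols lists all 52. Of these, 47 passed the filter on low counts and were tested. Gene expression was measured by sequencing total RNA in 3 libraries of control cells (NC, genotype label control) and 3 libraries of cells labelled SNORA67 knockdown (ASO). All 6 samples carry the same treatment note, which names transfection of the oligonucleotide, and what the control cells received is not given in the sources used here, nor are the dose, the time or the sequence of the oligonucleotide. SNORA67 is a small nucleolar RNA, and the title of the series links it to DLGAP5 and the Wnt pathway. Whether the libraries of a group came from separate cultures is not stated, so the p-values rest on the variation among these libraries alone, which may be technical.

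Wnt ligands are secreted lipid-modified proteins that bring a Frizzled receptor and the co-receptor LRP5 or LRP6 together at the cell surface. Without a ligand, a cytoplasmic complex built on AXIN1 and APC phosphorylates beta-catenin and marks it for degradation. With a ligand, that complex is held at the membrane, and beta-catenin reaches the nucleus, where it binds TCF/LEF factors and recruits co-activators of the BCL9 and Pygopus families in place of TLE co-repressors. Colorectal tumours commonly carry mutations in APC or in CTNNB1, the beta-catenin gene, and HCT116 is known for a CTNNB1 allele whose product escapes the complex. The genotype of these cells was not examined here.

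The estimated counts summed to between 50728524 and 53715905 in an NC library and to between 49136502 and 54905215 in an ASO library. Low values piled up at 4, so a sequenced fragment was taken as 4 counts, and 3 fragments, or 12 counts, as the smallest amount called detected in a library. In NC this is on average 0.228 CPM (TMM-scaled CPM, the counts set to a common library total). Such limits cover counting error only. SNORA67 itself was not analysed here. EIF4A1, the gene whose intron holds it, fell from 1544 ± 55.3 to 617 ± 46.3 CPM (SD, n = 3 each). Marker genes did not follow the label closely. Of 14 epithelial and intestinal markers, 3 had an NC mean of at least 10 CPM and 8 had a mean below 1 CPM, with EPCAM at 4.37 ± 1.13 CPM and CDH1, the E-cadherin gene, at 1.06 ± 0.23 CPM. Of 12 fibroblast and mesenchymal markers, 7 reached 10 CPM and 3, the collagen genes COL1A2, COL3A1 and COL6A3, had an NC mean below 1 CPM. Their summed level was 3038 to 3389 CPM in NC and 3762 to 4426 CPM in ASO, and that of the epithelial markers, mostly KRT8 and KRT18, 1981 to 2286 and 1712 to 2253 CPM. Single markers did not follow these sums. Of 11 mesenchymal markers tested, 5 rose and 4 fell, PDGFRB from 101 ± 8.09 to 41.0 ± 3.99 CPM among them. Of 11 epithelial markers tested, KRT19, VIL1 and LGALS4 rose and 8 did not pass. LGALS4 went from 0.0066 ± 0.011 CPM, under the limit of detection, to 18.0 ± 2.65 CPM. KRT19, VIL1 and LGALS4 passed the filter on low counts only through the ASO libraries. All 6 immune markers lay under 1 CPM in NC, and PTPRC and CD3E were at 0 in every library. The part of these markers in the results was not tested, and in RNA from whole cultures fewer cells of a type and less RNA per cell cannot be told apart.

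Of the 47 tested genes, 11 rose and 4 fell after the oligonucleotide by the quasi-likelihood test of edgeR, at an adjusted p under 0.05, and 32 did not pass. TCF7L1, among the 11, passed the filter on low counts only through the ASO libraries. Among all 14062 genes tested, 46% passed, 26.8% higher and 19.1% lower, against 31.9% of the Wnt genes, 23.4% higher and 8.51% lower. At least 2-fold changes were called for 7 of the 47, or 14.9%, against 20.8% of all genes. The 3 ASO values lay all above or all below the 3 NC values for 26 of the 47, or 55.3%, against 57.6% of all genes. The median log2 fold change was 0.12 over the 47 genes and 0.01 over all genes. The shares of Wnt genes called were near to or below the background. Without NC replicate 1, or without NC replicate 2, the 11 higher became 7. Of all genes, the 3772 higher became 3302 and 3470 in these 2 settings.

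**Figure D1:**
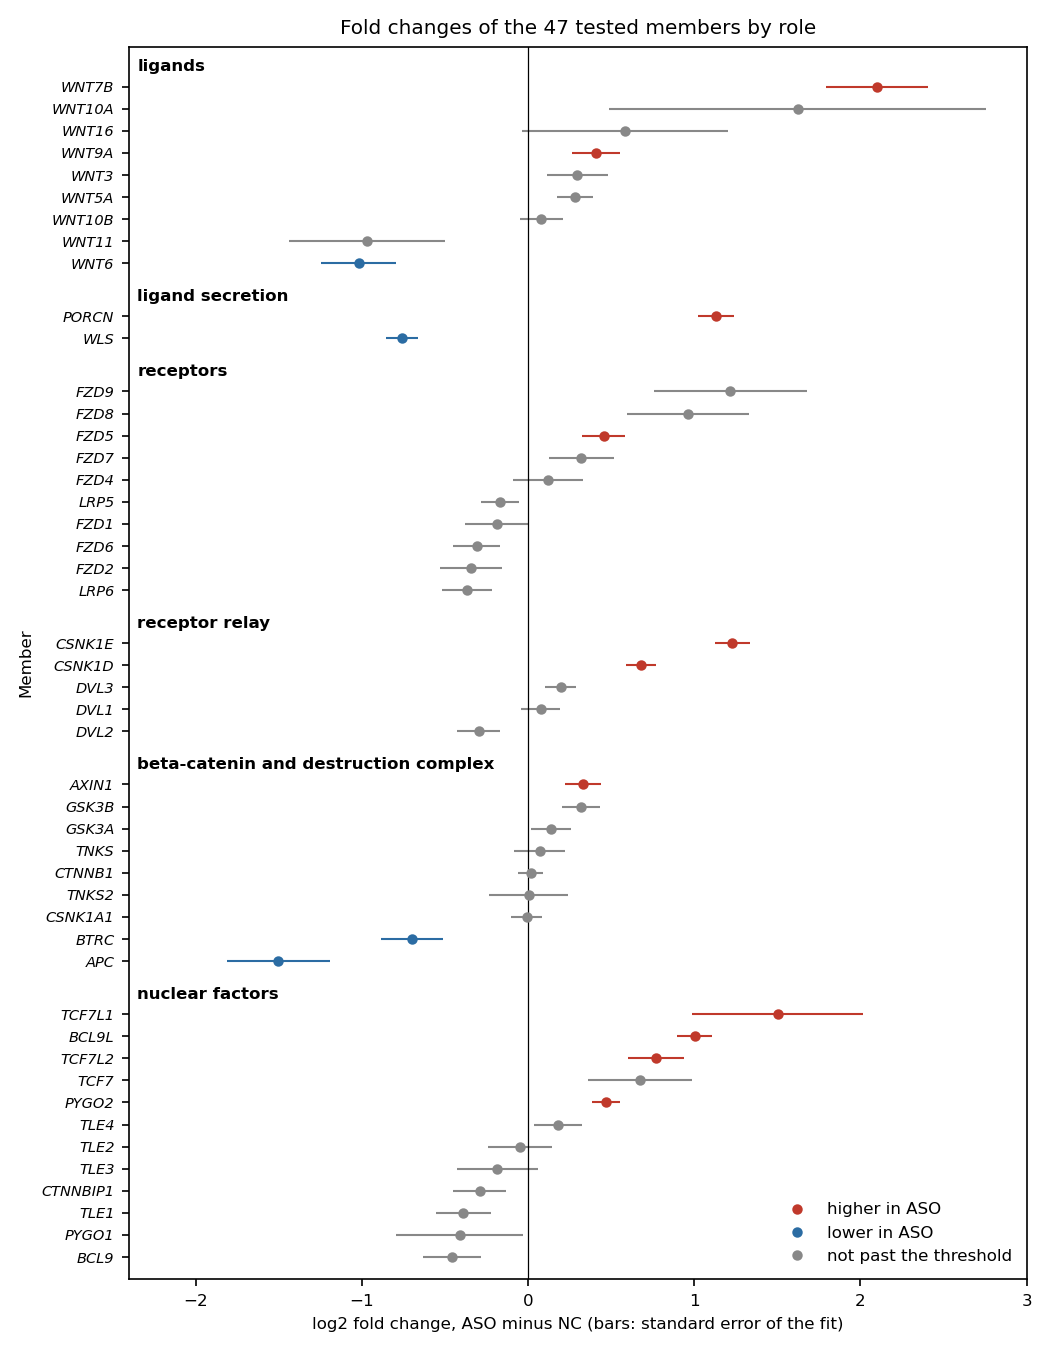
Log2 fold change of each of the 47 tested genes, ASO minus NC, on the x axis, in 6 role groups, with the standard error of the edgeR fit as bars. The values run from -1.501 for APC to 2.10 for WNT7B, and CTNNB1 sits at 0.02.

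Upstream sequence of genes at the ends of this range is shown first, because genes of both directions are among them and the bases before their starts differ in CpG content. The sequences are the 250 bases before the gene start (RefSeq, GRCh38.p14), taken for the 3 largest rises and 3 largest falls among called genes that average 1 CPM or more and have an entry, and 39 of the 52 genes have one. That of PORCN was shortened to 220 bases at its first annotated exon, and that of WLS is not shown because 144 of its bases lie in annotated exons. CSNK1E lies at chr22:38318085-38318334 on the minus strand, PORCN at chrX:48508742-48508961 on the plus strand and TCF7L2 at chr10:112949997-112950246 on the plus strand, and these 3 genes rose. APC at chr5:112707248-112707497 and WNT6 at chr2:218859555-218859804, both on the plus strand, fell. Each is written 5′ to 3′ on the strand of the gene, and capitals mark the CpG dinucleotides.
CSNK1E: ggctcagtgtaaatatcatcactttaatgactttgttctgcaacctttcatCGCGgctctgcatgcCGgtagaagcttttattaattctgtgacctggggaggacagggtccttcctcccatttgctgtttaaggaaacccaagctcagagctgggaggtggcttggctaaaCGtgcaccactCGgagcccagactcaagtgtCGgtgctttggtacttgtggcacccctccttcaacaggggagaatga
PORCN: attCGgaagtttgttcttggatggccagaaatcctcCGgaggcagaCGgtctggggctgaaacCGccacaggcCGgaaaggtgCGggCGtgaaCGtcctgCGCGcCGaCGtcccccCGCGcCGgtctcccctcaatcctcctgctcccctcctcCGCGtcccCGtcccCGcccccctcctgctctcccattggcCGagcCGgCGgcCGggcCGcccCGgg
TCF7L2: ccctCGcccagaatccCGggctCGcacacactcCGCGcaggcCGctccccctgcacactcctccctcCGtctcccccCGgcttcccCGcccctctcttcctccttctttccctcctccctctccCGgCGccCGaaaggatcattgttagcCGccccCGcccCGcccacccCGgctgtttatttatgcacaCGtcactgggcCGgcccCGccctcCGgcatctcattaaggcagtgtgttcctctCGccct
APC: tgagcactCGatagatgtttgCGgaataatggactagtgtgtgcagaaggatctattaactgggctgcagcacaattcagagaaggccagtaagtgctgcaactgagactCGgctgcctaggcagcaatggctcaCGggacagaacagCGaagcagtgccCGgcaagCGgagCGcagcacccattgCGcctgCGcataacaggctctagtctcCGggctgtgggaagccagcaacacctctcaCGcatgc
WNT6: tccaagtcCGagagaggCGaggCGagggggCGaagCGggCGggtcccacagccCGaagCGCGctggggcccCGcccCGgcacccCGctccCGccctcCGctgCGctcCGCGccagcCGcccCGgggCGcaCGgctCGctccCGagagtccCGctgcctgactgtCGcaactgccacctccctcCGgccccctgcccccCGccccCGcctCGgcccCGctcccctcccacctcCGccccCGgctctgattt

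The CpG count was 6 for CSNK1E, 25 for PORCN and 21 for TCF7L2, against 12 for APC and 32 for WNT6, in the windows as printed. Over full windows of 250 bases, not trimmed at exons, the median CpG count was 30 in the 8 genes called higher with an entry. It was 12 in the 3 called lower and 24 in the 25 not past the threshold, against 11 over all windows. The median GC content of these windows was 73.2%, 62.0% and 68.8%, against 58.0% over all windows. The 3 lower genes are APC with 12 CpG, WNT6 with 32 and WLS with 10. The WLS window was left out above because 144 of its bases lie in annotated exons. Its GC content is the 62.0%, so the medians of the lower genes depend on that window. All these medians are descriptions of few genes, and CSNK1E and WNT6 lie far from the median of their direction. None of the 39 upstream windows of 250 bases held TGANTCA, the letters bound by AP-1 factors, on either strand, against 6.57% of all 35116 windows. CTTTGAT, a core read by TCF/LEF factors, was likewise in 0 of 39 against 2.26%, and TATAAA in 3 of 39 against 10.7%, those of FZD8, PYGO1 and TCF7. A match or its absence describes only these letters in this window.

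Ligand genes changed in both directions. Of 10 listed, 9 were tested, 2 rose, 1 fell and 6 did not pass. The shares were 22.2% higher and 11.1% lower, against 26.8% and 19.1% of all genes. WNT3A, a classical activator of beta-catenin signalling, was at 0 in every library. Per kb of exon, the ligand transcripts of highest level in NC were WNT5A, a ligand best known for signalling without beta-catenin, and WNT10B, at 8.42 ± 0.22 and 8.27 ± 0.41 CPM per kb, which did not differ beyond their spread. WNT6 followed at 5.31 ± 0.56, WNT3 at 2.65 ± 0.51 and WNT9A at 2.42 ± 0.08 CPM per kb, the last 2 again within their spread.

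WNT7B (chromosome 22, 45920366 to 45977162) stood at 1.06, 1.98 and 1.45 CPM in NC libraries, against 7.56, 4.78 and 6.94 CPM in ASO. The groups did not overlap, and the rise of 4.29-fold was the largest of the set (log2 2.10 ± 0.31 SE, edgeR adjusted p = 0.00121). WNT6 (chromosome 2, 218859805 to 218874233) went the other way, from 9.57, 7.95 and 9.63 to 3.95, 3.68 and 5.78 CPM. Every ASO library was below every NC library, a fall of 2.02-fold (log2 -1.02 ± 0.23, edgeR adjusted p = 0.00796). WNT9A rose 1.33-fold, from 9.61, 9.28 and 9.92 to 13.8, 11.9 and 12.6 CPM (edgeR adjusted p = 0.0477). This smaller rise lost its call without any of the NC libraries and without ASO replicate 1 or 3 (adjusted p of 0.0981 to 0.125), with upper-quartile scaling (0.0553) and with no filter on low counts (0.0643).

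WNT5A was at 64.1, 60.9 and 61.9 CPM in NC and 69.1, 85.8 and 72.6 CPM in ASO. All 3 ASO libraries were higher, by 1.22-fold, but the edgeR adjusted p was 0.0651. DESeq2 gave an adjusted p of 0.044. WNT10B differed by less than the spread, at 21.7 ± 1.06 and 23.0 ± 2.31 CPM (edgeR adjusted p = 0.639). WNT3, WNT10A, WNT11 and WNT16 did not pass either, with edgeR adjusted p-values of 0.127 to 0.468, and WNT10A and WNT16 lay at about 1 CPM or less in every library.

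Summed over all 19 WNT genes, the level was 28.5 ± 0.39 CPM per kb in NC and 32.4 ± 1.07 in ASO. WNT5A and WNT10B together with WNT6 held most of it in NC. The WNT6 share was 18.6 ± 2.18% in NC and 8.05 ± 1.77% in ASO, and the WNT7B share 1.04 ± 0.31% and 3.92 ± 0.88%. WNT5A kept a share of 29.5 ± 1.04% and 31.6 ± 4.15%. These shares are descriptions, with no test.

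**Figure D2:**
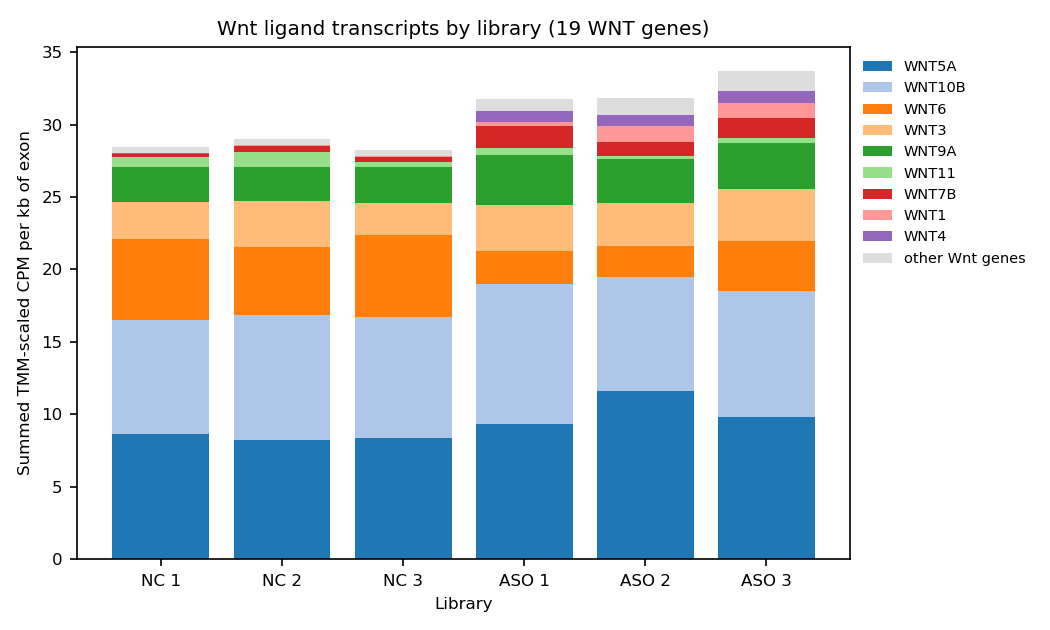
Summed level of the 19 WNT genes in TMM-scaled CPM per kb of exon (y axis) in each of the 6 libraries (x axis), stacked by gene, with genes that never held 2% of the sum pooled. The WNT6 layer is thinner and the WNT7B layer thicker in all 3 ASO libraries, and the NC totals are 28.23 to 28.98 and the ASO totals 31.8 to 33.7.

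The 2 genes of ligand secretion moved in opposite directions. PORCN, the membrane enzyme that attaches palmitoleate to Wnt proteins (chromosome X, 48508962 to 48520814), was at 24.8, 23.9 and 26.0 CPM in NC and 56.8, 50.4 and 56.4 CPM in ASO. It rose 2.19-fold without overlap (log2 1.13 ± 0.11 SE, edgeR adjusted p = 0.000142). WLS, the carrier that takes lipid-bearing Wnt proteins to the cell surface (chromosome 1, 68098473 to 68233120), was at 123, 127 and 117 CPM in NC. In ASO it was at 66.9, 76.9 and 73.4 CPM, a fall of 1.69-fold (log2 -0.76 ± 0.09, edgeR adjusted p = 0.000553). On the per-kb scale WLS was above PORCN in NC, at 27.4 ± 1.21 against 8.27 ± 0.345, and in ASO they came close, at 16.2 ± 1.14 against 18.1 ± 1.19, with overlapping libraries. Both calls held with each library left out.

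The secreted inhibitors of the set were not detected. SFRP1, which binds Wnt proteins through a Frizzled-like domain, had 0 counts in all 6 libraries. SFRP5, of the same family, had 7 counts in ASO replicate 1 and 0 elsewhere, and WIF1, another Wnt-binding protein, had 8 counts in NC replicate 2 and 0 elsewhere, all under the limit of 12.

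Few receptor genes passed. Of 11 listed, 10 were tested and only FZD5 passed, as a rise, which is 10% of those tested against the 46% of all genes. Between the groups 4 of the 10 did not overlap, 2 in each direction, which is 40% against 57.6% of all genes. FZD3 reached at most 12 counts in any library and was not tested.

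Among Frizzled genes, FZD2 and FZD6 had the highest level per kb in NC, at 12.2 ± 1.42 and 7.45 ± 1.16, and held 44.1 ± 4.59% and 27.0 ± 4.75% of the summed level of the 10 Frizzled genes. FZD5 (chromosome 2, 207762598 to 207769906) was at 15.2, 16.2 and 17.2 CPM in NC and 21.5, 24.1 and 20.9 CPM in ASO. The groups did not overlap and the rise was 1.37-fold (log2 0.46 ± 0.13 SE, edgeR adjusted p = 0.0229). The call was lost without NC replicate 1, 2 or 3 (adjusted p = 0.096, 0.0579 and 0.0516).

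FZD8 and FZD9 had larger fitted folds at low levels. They were at 0.84 ± 0.13 and 0.90 ± 0.43 CPM in NC and 1.64 ± 0.41 and 2.10 ± 0.72 CPM in ASO, with edgeR adjusted p-values of 0.0627 and 0.0621. FZD1, FZD2, FZD4, FZD6 and FZD7 did not pass, with log2 differences of -0.34 to 0.32. The summed Frizzled level was 27.6 ± 0.70 CPM per kb in NC and 25.7 ± 2.52 in ASO, a difference smaller than the ASO spread.

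LRP5, the co-receptor of higher level, was at 166, 156 and 174 CPM in NC and 166, 126 and 148 CPM in ASO, and the groups overlapped (log2 -0.17 ± 0.11 SE, edgeR adjusted p = 0.256). LRP6, its paralogue, was at 38.0, 36.8 and 34.6 CPM in NC and 25.7, 34.3 and 24.8 CPM in ASO. Its 3 ASO libraries were all lower, but ASO replicate 2 came close to the NC range, and the difference of -0.37 ± 0.15 on the log2 scale did not pass (edgeR adjusted p = 0.0783). Without ASO replicate 2 it passed, at -0.53 (edgeR adjusted p = 0.0076). LRP5 held 88.3 ± 0.92% of the summed per-kb level of both co-receptors in NC and 89.5 ± 3.02% in ASO.

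**Figure D3:**
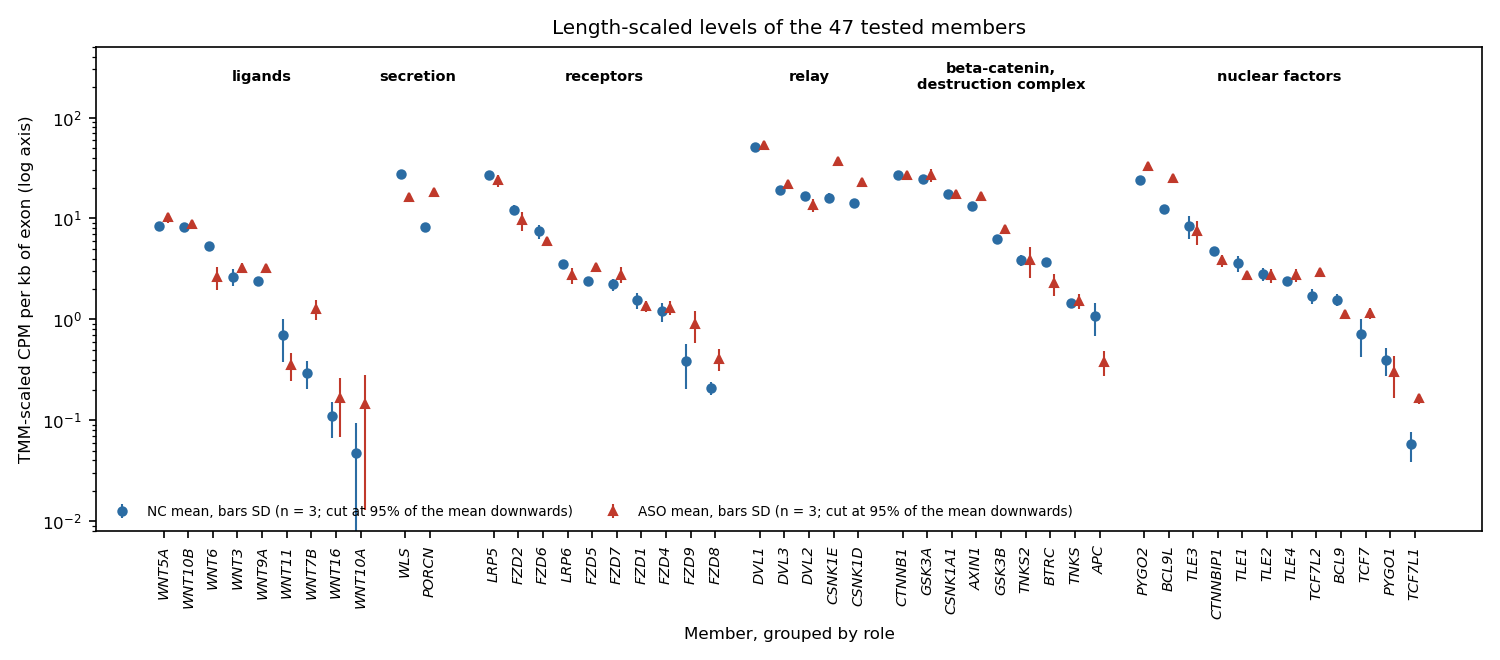
TMM-scaled CPM per kb of exon (y axis, log scale) of the 47 tested genes (x axis) by role, with the mean and SD of 3 NC and 3 ASO libraries. DVL1, LRP5, WLS, CTNNB1, GSK3A and PYGO2 stand at 23.9 or more in NC, and TCF7L1 and WNT10A lie under 0.1 in NC.

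Of the genes that relay the signal from the receptor, the 2 kinases rose and the 3 Dishevelled genes did not pass. The rises are 40% of the 5 tested, against 26.8% of all genes, and 0% fell against 19.1%. CSNK1E, a casein kinase that phosphorylates Dishevelled (chromosome 22, 38290691 to 38318084), was at 109, 87.9 and 102 CPM in NC. In ASO it reached 246, 219 and 235 CPM, 2.35-fold higher with no overlap (log2 1.23 ± 0.10 SE, edgeR adjusted p = 8.2e-05, the smallest of the set). Its close paralogue CSNK1D (chromosome 17, 82239727 to 82273700) rose 1.6-fold, from 170, 147 and 159 to 265, 238 and 260 CPM (log2 0.68 ± 0.09, edgeR adjusted p = 0.000758).

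Annotated exons of both kinases are shared with other genes, and the strand setting of the counting is not given in the sources used here. The joint model TPTEP2-CSNK1E covers 21.1% of the CSNK1E exons on the same strand and was at 0.58 ± 0.10 CPM in NC against 0.43 ± 0.08 CPM in ASO. On the opposite strand to CSNK1D, AC132872.4 covers 11.4% of its exons, and SLC16A3, at 170 ± 15.2 and 248 ± 28.4 CPM, covers 4.37%. How reads in shared exons were divided was not tested.

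The Dishevelled proteins bind activated Frizzled receptors and draw AXIN1 to the membrane. DVL1, at the highest level per kb of this role, was at 201, 170 and 211 CPM in NC and 225, 182 and 206 CPM in ASO, and the groups overlapped (edgeR adjusted p = 0.619). DVL2 was at 88.9 ± 6.77 and 72.4 ± 10.7 CPM and DVL3 at 121 ± 8.08 and 138 ± 8.46 CPM. In neither did the libraries of the groups overlap, DVL2 being lower and DVL3 higher in ASO, yet neither passed (edgeR adjusted p = 0.0981 and 0.117).

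CTNNB1, the beta-catenin gene (chromosome 3, 41194741 to 41240445), did not differ detectably in RNA level. It was at 313, 307 and 335 CPM in NC and 316, 333 and 318 CPM in ASO, with overlapping groups (log2 0.02 ± 0.07 SE, edgeR adjusted p = 0.881). The sign of so small a value turned with upper-quartile scaling. RNA level gives no measure of the beta-catenin protein, which the destruction complex regulates.

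Among the 8 genes that encode the destruction complex and its regulators, 1 rose, 2 fell and 5 did not pass. With CTNNB1 counted, 11.1% of 9 rose and 22.2% fell, against 26.8% and 19.1% of all genes. APC, the scaffold that is lost in many colorectal tumours (chromosome 5, 112707498 to 112846239), was at 9.80, 18.9 and 11.4 CPM in NC and 4.34, 6.2 and 3.64 CPM in ASO. It fell 2.83-fold, the largest fall of the set (log2 -1.501 ± 0.31 SE, edgeR adjusted p = 0.00575). The lowest NC library was still above the highest ASO library, and the call held with each library left out (adjusted p up to 0.0262).

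BTRC, which encodes the F-box protein that recognises phosphorylated beta-catenin for ubiquitination (chromosome 10, 101354033 to 101557321), was at 24.5, 24.4 and 24.2 CPM in NC and 11.9, 19.1 and 14.0 CPM in ASO. It fell 1.62-fold (log2 -0.70 ± 0.19 SE, edgeR adjusted p = 0.0169). The NC libraries were nearly level and the ASO libraries spread widely, below all of them. The call was lost without NC replicate 1, 2 or 3 (adjusted p = 0.059, 0.0525 and 0.0512) and without ASO replicate 3 (0.0635).

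AXIN1, the scaffold that limits assembly of the complex (chromosome 16, 287440 to 352723), was at 102, 89.5 and 104 CPM in NC and 136, 111 and 125 CPM in ASO. It rose 1.26-fold without overlap (log2 0.33 ± 0.11 SE, edgeR adjusted p = 0.0392). The call held without ASO replicate 2 and was lost without any of the other 5 libraries (adjusted p of 0.0569 to 0.124). Its log2 difference was -0.03 once the dependence on GC content and length was taken out.

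GSK3B, a kinase of beta-catenin, was at 50.6, 54.9 and 47.6 CPM in NC and 60.3, 71.2 and 59.4 CPM in ASO. All ASO libraries were higher, by 1.25-fold, and the edgeR adjusted p was 0.0523. Among other settings, it passed with RLE scaling (0.0453), DESeq2 (0.0319), limma-voom (0.0497) and counts divided by 4 (0.0404). GSK3A, its paralogue, and CSNK1A1, the priming kinase of beta-catenin, overlapped between the groups (edgeR adjusted p = 0.386 and 0.951). CSNK1A1 was at 134 ± 9.64 and 133 ± 9.15 CPM. The tankyrase genes TNKS and TNKS2, whose products mark AXIN1 for degradation, were at 20.6 ± 1.03 and 23.7 ± 3.09 CPM in NC and 21.6 ± 3.53 and 23.8 ± 8.12 CPM in ASO. Within ASO, TNKS2 ranged from 17.3 to 32.9 CPM, with ASO replicate 2 highest.

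Of 12 nuclear factors tested, 4 rose, 0 fell and 8 did not pass. Of the 4, TCF7L1 passed the filter on low counts only through the ASO libraries. The rises are 33.3% of those tested against 26.8% of all genes, and 0% fell against 19.1%. The 4 that rose encode 2 TCF factors and 2 co-activators. Their libraries did not overlap, which is no separate evidence because the calls came from the same libraries. Of the 12, 8 did not overlap, 5 above and 3 below, or 66.7% against 57.6% of all genes.

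TCF7L2, the TCF factor most prominent in intestinal epithelium (chromosome 10, 112950247 to 113167678), was at 10.3, 10.4 and 13.9 CPM in NC and 20.9, 18.1 and 19.98 CPM in ASO. It rose 1.71-fold (log2 0.77 ± 0.17 SE, edgeR adjusted p = 0.00745), and the call held with each library left out. TCF7L1, known mainly as a repressor, had 14, 9 and 17 counts in NC and 44, 34 and 34 counts in ASO. The NC values are close to the limit of 12 counts, and the gene passed the filter on low counts only through the ASO libraries. Its 2.83-fold rise (edgeR adjusted p = 0.0438) was lost, among other settings, with each library left out (adjusted p of 0.0689 to 0.133), with no filter on low counts (0.0804) and with a filter at a mean count of 10 (0.0521).

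TCF7 was at 9.40, 3.86 and 8.38 CPM in NC and 10.5, 10.9 and 13.1 CPM in ASO. The ASO libraries were all higher, but NC replicate 2 stood well below the other NC libraries and the gene did not pass (edgeR adjusted p = 0.116). LEF1, the other member of the family, had 0 counts in every library. TCF7L2 held 69.5 ± 9.02% of the summed TCF/LEF level per kb in NC and 69.0 ± 2.31% in ASO, so its share differed by less than the spread while the sum went from 2.49 ± 0.51 to 4.23 ± 0.27 CPM per kb.

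BCL9L, which bridges beta-catenin and Pygopus (chromosome 11, 118893875 to 118925926), was at 138, 120 and 136 CPM in NC and 287, 235 and 268 CPM in ASO. It rose 2-fold (log2 1.003 ± 0.10 SE, edgeR adjusted p = 0.000235). CXCR5, a chemokine receptor gene on the opposite strand, covers 37.5% of the annotated BCL9L exons, and it was at 0 in every NC library, against 10.5, 4.66 and 12.1 CPM in ASO. Which of the 2 genes the reads in shared exons came from was not tested. The paralogue BCL9 was at 10.5, 11.1 and 8.46 CPM in NC and 7.95, 7.02 and 6.88 CPM in ASO, lower in every ASO library without passing (edgeR adjusted p = 0.0641).

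PYGO2, a Pygopus protein gene that reads histone methylation (chromosome 1, 154957026 to 154962036), was at 90.2, 83.2 and 86.6 CPM in NC and 124, 116 and 121 CPM in ASO. It rose 1.39-fold, with little spread in either group (log2 0.47 ± 0.08 SE, edgeR adjusted p = 0.00318). PYGO1 was at 3.44 ± 1.07 and 2.59 ± 1.17 CPM and did not pass (edgeR adjusted p = 0.408).

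CTNNBIP1 and the TLE co-repressor genes did not pass. CTNNBIP1, an inhibitor that keeps beta-catenin from TCF factors, was at 15.7 ± 1.15 and 12.8 ± 1.74 CPM (edgeR adjusted p = 0.166). Of the TLE co-repressor genes, TLE1 was at 17.6 ± 3.09 and 13.4 ± 0.44 CPM, with every ASO library lower (edgeR adjusted p = 0.0873). TLE2, TLE3 and TLE4 overlapped between the groups (edgeR adjusted p = 0.342 to 0.86). TLE3 had the widest spread, from 75.0 to 124 CPM in NC and from 73.6 to 124 CPM in ASO.

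**Figure D4:**
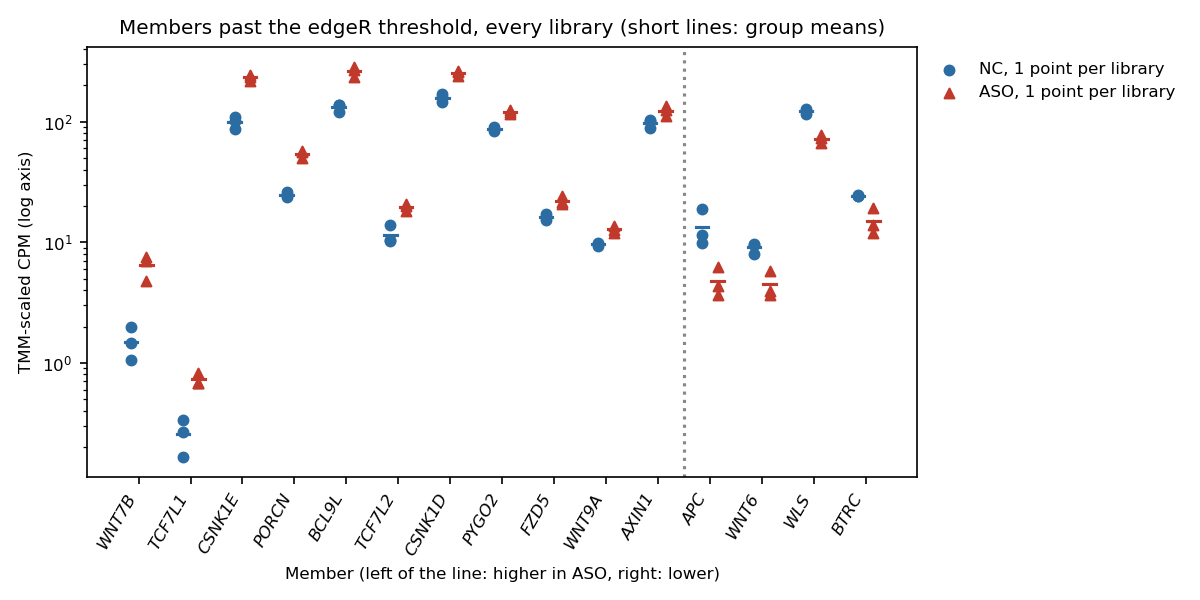
TMM-scaled CPM (y axis, log scale) of the 15 genes past the edgeR threshold (x axis), with 1 point per library and short lines at the group means. In all 15 the ASO points lie entirely above or below the NC points, from 0.17 CPM for the lowest TCF7L1 library to 287 CPM for the highest BCL9L library. The 15 were picked by the test on these same libraries, so their separation is no further evidence.

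Base composition moved with the fold changes over the whole table. Over 11729 genes at 1 CPM or more in NC, log2 fold change and the GC content of the longest transcript had a Spearman rho of 0.36 and a Pearson r of 0.31, and over the 42 Wnt genes of that level a rho of 0.17 and an r of 0.22. These are descriptions across genes of the same 6 libraries. The genes called higher had a median GC content of 58.2% and those called lower 46.5%, with 39.6% in APC and 70.5% in WNT6. When a smooth trend with GC content and length was taken from all genes, 9 of 10 higher and 4 of 4 lower genes at that level kept their sign, AXIN1 being the exception. PORCN stood at 1.11, CSNK1E at 1.17, WNT7B at 1.89 and APC at -1.22 on the log2 scale after this step, and BCL9L went from 1.003 to 0.58.

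**Figure D5:**
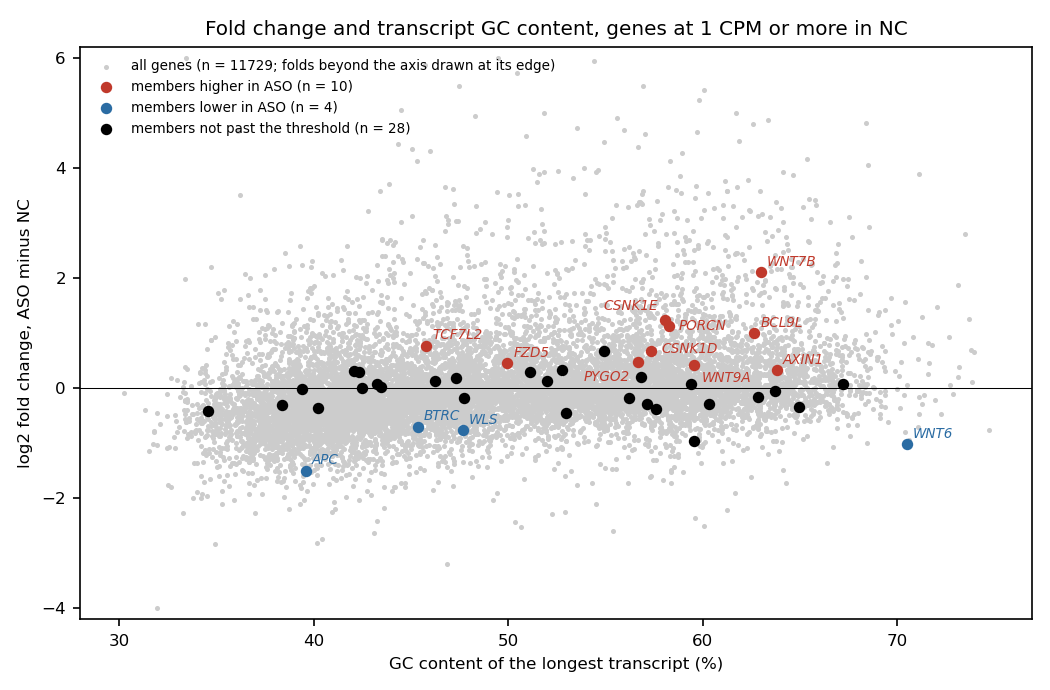
Log2 fold change (y axis, ASO minus NC) against the GC content of the longest transcript in percent (x axis) for 11729 genes at 1 CPM or more in NC, with 42 Wnt genes coloured by call. The genes called higher lie at 45.8% to 63.8% GC, and APC, BTRC and WLS, called lower, at 39.6% to 47.7%, while WNT6 lies at 70.5%.

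A further 69 genes of the pathway were listed for comparison. Of these, 49 were tested, 17 rose, 8 fell and 24 did not pass, which is 51% called against 46% of all genes, and their median log2 fold change was 0.08. The 8 that fell became 4 without NC replicate 1, 5 without NC replicate 2 and 5 without ASO replicate 3. Of all genes, the 2692 that fell became 1755, 1850 and 1764 in the same settings. Other ligands rose in 4 of 5 tested, or 80% against 26.8% of all genes, and all of them were low in NC. WNT1, WNT4 and WNT8B had fewer than 10 counts in every NC library. They passed the filter only through ASO, so a call could only be a rise. WNT2B was at 1.93, 0.66 and 0.67 CPM in NC and 2.91, 6.06 and 7.68 CPM in ASO, a 5.09-fold rise (edgeR adjusted p = 0.00859). ST7L, on the opposite strand, covers 21.2% of its exons. WNT4 was under the limit of detection in NC, with 5 counts in all, and at 3.35, 3.52 and 3.78 CPM in ASO (edgeR adjusted p = 0.000456).

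Secreted modulators rose in 3 of 6 tested, or 50% against 26.8% of all genes, and 7 more were too low to test. FRZB and SOST, at 0 in every NC library, passed the filter only through ASO, so a call could only be a rise. DKK1, which blocks LRP5 and LRP6, went from 5.62, 4.90 and 4.81 to 33.5, 30.3 and 35.7 CPM, 6.48-fold higher (edgeR adjusted p = 8.72e-06). SOST, a blocker of the same co-receptors named after its values were seen, was at 0 in every NC library, against 0.56, 1.5 and 0.94 CPM in ASO, at least 4.38-fold higher against the limit of 12 counts per library. Receptor-side genes split into 2 higher and 2 lower of 9, or 22.2% each, against 26.8% and 19.1% of all genes. RNF43, a ligase that removes Frizzled receptors, rose 2.47-fold to 64.9 ± 4.73 CPM (edgeR adjusted p = 9.43e-05). AC004687.2, on the same strand, covers 57.6% of its exons, and TSPOAP1-AS1, on the opposite strand, 20.3%. Its paralogue ZNRF3 was at 15.8 ± 0.87 and 18.4 ± 0.83 CPM and did not pass (edgeR adjusted p = 0.196). ROR1, a receptor for WNT5A, rose 4.24-fold to 4.72 ± 0.96 CPM (edgeR adjusted p = 0.00219), and LGR5 had 0 counts in NC and at most 0.26 CPM in ASO.

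Planar polarity genes, which act in the branch without beta-catenin, split into 3 higher and 2 lower of 7. These are 42.9% and 28.6%, against 26.8% and 19.1% of all genes. VANGL2 and PRICKLE1, among the 3 higher, passed the filter only through ASO. VANGL2 was at 0 in every NC library, and PRICKLE1 had 0, 35 and 48 counts in NC. PRICKLE1 was at 0.53 ± 0.49 CPM in NC libraries and 6.72 ± 1.04 CPM in ASO libraries, 12.6-fold higher (edgeR adjusted p = 0.0105), a call lost without NC replicate 2 (adjusted p = 0.0504). On the opposite strand, AC079601.1 covers 22.5% of its exons and PPHLN1 5.31%. Other cytoplasmic regulators split into 2 higher and 3 lower of 11, or 18.2% and 27.3%, against 26.8% and 19.1% of all genes. NKD2, an inhibitor that binds Dishevelled, rose 3.06-fold to 24.1 ± 4.75 CPM (edgeR adjusted p = 0.000964). AXIN2, a direct target of beta-catenin signalling as well as a scaffold, was at 0.85, 0.26 and 0.63 CPM in NC and 0.30, 0 and 0.24 CPM in ASO, or 45, 14 and 32 counts against 16, 0 and 12 counts (edgeR adjusted p = 0.203). A gene annotated on the same strand, AC004805.1, covers 25.2% of its exons. Other nuclear factors gave 3 higher and 1 lower of 11, or 27.3% and 9.09%, against the same shares of all genes. Chosen for mention with their values known, the 3 that rose were the acetyltransferase genes CREBBP and EP300, by 1.73-fold and 1.52-fold, and the co-repressor gene CTBP2, by 1.26-fold, and ZRANB1 on the opposite strand covers 31.2% of the CTBP2 exons.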

How the data were processed

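RNA sequencing libraries of cells labelled HCT116 (3 NC, 3 ASO) were analysed. Build hg38 and the tools STAR, StringTie, FastQC and DESeq2 are listed, with no version, per the submitters' processing notes. Values in the deposited table are estimated counts, whole numbers not scaled to depth, so rounding changed nothing. Which annotation, strand setting and rule for shared reads the authors used is not stated in the sources at hand.

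The fit used edgeR 4.0.16 (R 4.3.3). Genes were kept by filterByExpr (minimum count 10, minimum total 15), leaving 14062 and removing 5593, and TMM factors lay between 0.978 and 1.02. The difference of ASO from NC was tested with the robust quasi-likelihood test, no replicate block, and p-values adjusted by Benjamini-Hochberg over all genes tested at 0.05. SE is the fitted log2 difference over the root of its F statistic. Levels are TMM-scaled CPM, mean ± SD. Exon lengths, overlaps and GC content came from GENCODE 29 (GRCh38), which matched 19230 of 19655 symbols, and upstream sequences from RefSeq. Alternatives were other scalings and filters, DESeq2 1.42.0, limma-voom (limma 3.58.1), counts divided by 4, removal of mitochondrially encoded genes, a replicate block, a trend removal, another length and leaving out each library.

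The 52 genes and the lists were chosen with earlier results of these data known. Values per library are given for 12 key components, every called gene and the gene of highest level per kb in each role. Of the other Wnt genes, 5 key ones and the 6 largest changes at 1 CPM or more are named. The scripts were first tested on simulated data.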

Additional observations from a re-analysis of the deposited data

How the results depend on the processing

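The 15 calls were all kept with RLE scaling, library size alone, DESeq2, limma-voom and removal of mitochondrially encoded genes. In these settings 15 to 18 of the 47 tested genes were called, against 45.7% to 49.1% of all genes. APC, WNT6, WNT7B, PORCN, WLS, CSNK1D, CSNK1E, TCF7L2, BCL9L and PYGO2 kept their calls under all 16 alternatives with a test, and FZD5, BTRC, AXIN1, WNT9A and TCF7L1 did not. With a library left out, 10 to 19 Wnt genes were called, 7 to 14 higher and 3 to 5 lower. Of all genes, 34.3% to 49.8% were called with a library left out. Of the other Wnt genes 4 to 7 were lower. Of all genes 1755 to 3199 were lower, with 1755 without NC replicate 1 and 1764 without ASO replicate 3. These settings have fewer samples, and other causes were not tested.

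Among values that did not pass, the log2 difference of CTNNB1 turned to -0.0041 with upper-quartile scaling and ran from -0.011 without ASO replicate 2 to 0.042 without NC replicate 3. That of DVL1 ran from -0.0017 without ASO replicate 1 and -0.00047 without NC replicate 2 to 0.149 without ASO replicate 2. The called rise of AXIN1 turned to -0.031 when the trend with GC content and length was removed. Deviations of same-numbered libraries from their group means correlated at 0.12, 0.41 and 0.084, and NC replicate 3 correlated best with ASO replicate 1 (0.24), so the numbers were not taken as pairs. With the replicate block 20 Wnt genes were called, and 7 were lower in place of 4. Of all genes 52.8% were called with the block, against 46% without, and 3494 were lower in place of 2692. TCF7L1 lost its call (edgeR adjusted p = 0.123), and GSK3B (0.0151), LRP6 (0.0392), WNT5A (0.049), DVL2, DVL3 and FZD2 gained one. Levels per kb depended on the length used: with the longest transcript CTNNB1 stood at 65.2 and WLS at 44.6 CPM per kb in NC, and the order of the relay genes below DVL1 changed.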

Other observations

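ASO replicate 2 stood apart from the other ASO libraries in several genes of the set whose longest transcripts have a GC content of 39.6% to 45.3%. It was the highest ASO library for APC (6.2 against 4.34 and 3.64 CPM), BTRC (19.1 against 11.9 and 14.0), LRP6 (34.3 against 25.7 and 24.8), TNKS2 (32.9 against 17.3 and 21.1) and GSK3B (71.2 against 60.3 and 59.4). It was the lowest for LRP5 (126 against 166 and 148 CPM), DVL2 (60.1 against 78.9 and 78.2) and BCL9L (235 against 287 and 268), whose transcripts have a GC content of 60.3% to 62.8%. These genes were named after their values were seen. Other genes of low GC content went otherwise. FZD6 (38.4% GC) was lowest in ASO replicate 2, and CSNK1A1 (39.4%) and TNKS (43.3%) lay between the other ASO libraries. The chi-square per gene over fragments was 28.7 between ASO replicates 1 and 2, 19.2 between 2 and 3, and 10.7 between 1 and 3. NC replicate 2 likewise differed more from the other NC libraries, at 15.3 and 20.3, than these did from each other, at 10.6.

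Some paralogues had different values, while others, such as CSNK1D and CSNK1E, or CREBBP and EP300, rose together. The families named here were picked after their values were seen. BCL9L rose while BCL9 was lower in every ASO library, and CELSR3, a planar polarity cadherin gene, rose 2.55-fold to 218 ± 25.4 CPM while CELSR1 and CELSR2 fell 1.56-fold and 1.6-fold (edgeR adjusted p = 0.000186, 0.00233 and 0.0087). ROR1 rose while ROR2, its paralogue, fell 1.25-fold to 40.9 ± 4.03 CPM (edgeR adjusted p = 0.044). The differences between paralogues were not tested.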
